A study of Arabidopsis thaliana with 12 samples.

Results

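The 91 genes described here carried the brightest signals among the named features of an expression array hybridised with RNA from wild-type roots of Arabidopsis thaliana. A feature is a spot of the array, and 692 of its 3439 features are annotated with exactly 1 gene. These 692 were ordered by their mean intensity over the 6 wild-type samples, the 100 highest were kept, and 9 genes were then left out by name, 5 of them genes of thylakoid protein complexes. The members were thus chosen by their wild-type intensity, so their brightness in the wild type and their order are a description with no test. The brightness of a feature depends on the feature as well as on its RNA, and the order is an order of features, not of transcript abundance. Every gene name comes from the annotation of the platform and was not checked against probe sequences.

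Total RNA was measured in 12 samples. The wild type (WT) and kn09 each had 6 samples, both in the Wassilevskija ecotype, and roots of both genotypes had received 100 mM glucose in MS medium during 48 h. The labels describe kn09 as a mutant with a block of mitochondrial proline catabolism and a heightened sensitivity to proline. The mutated gene is not named in them, nor are the age of the plants, the number pooled per sample or whether the samples came from separate cultures, so the p-values cover the spread among these 12 samples, and that spread may be technical. All WT samples had received glucose, so no level without glucose was measured.

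Roots are heterotrophic: they import sucrose from the shoot, cleave it to glucose and fructose, and use the hexoses for respiration, cell walls and signalling. Glucose acts both as a fuel and as a signal in plants, and it is known to repress nuclear genes of photosynthesis in leaves. Root cells hold plastids without a developed photosynthetic apparatus, and these plastids carry out the synthesis of fatty acids, amino acids and isoprenoids. Proline accumulates in plants under water stress and is oxidised in mitochondria to glutamate when the stress ends.

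An intensity is a deposited linear value, and the brightest feature of each sample stood at 100. How that scale arose is not known here. None of the members stood at 100 and none was at 0 in any of the 12 samples. The median intensity of all features was 0.139 to 0.227 in WT samples and 0.102 to 0.121 in kn09 samples, and 153 to 235 features were at 0 in WT samples against 398 to 522 in kn09 samples. Because of this shift, a difference in deposited intensity depends on the scaling, whereas the rank of a feature within its own sample does not. Ranks here run from 1, the brightest of the 692 single-gene features, to 692. None of 11 root marker loci, 8 green tissue loci and 2 loci of proline catabolism lay on a single-gene feature, so the tissue and the mutant could not be checked by these genes. In the ranks of the members, WT samples 1 and 2 stood apart from WT samples 3 to 6. For 61 of the 91 members the ranks in WT samples 1 and 2 lay outside the range of WT samples 3 to 6, in 19 members on the brighter side and in 42 on the dimmer side. The same count was 38 for WT samples 3 and 4 against the other 4, 23 for WT samples 5 and 6, and 31 to 35 for such pairs of kn09 samples. These counts were not made over all 692 features, so they describe the members only. WT samples 3 to 6 gave most of the values that chose the members, so a dimmer side in WT samples 1 and 2 is favoured. The mean rank of WT samples 1 and 2 lay nearer to that of kn09 than to that of WT samples 3 to 6 in 65 of the 91 members, or 71.4%, and in 54.9% of all 692 single-gene features. The WT values that chose the members enter this comparison too, so nothing is read from the distance between these shares. The spread and the means of WT thus join samples whose ranks lay apart in 61 of the 91 members. The main counts of calls are given with and without WT samples 1 and 2.

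The brightest member was AT4G31530, annotated to a protein with the NAD(P)-binding Rossmann fold of many oxidoreductases. Its intensity in WT had a lowest value of 44.5, a median of 60.1 and a highest value of 70.6, and in kn09 these values were 34.8, 47.2 and 70.6. The intensities of the genotypes overlapped, and the feature held rank 1 in all 6 WT samples. AT3G09850, annotated to a protein with a G-patch domain, which is a short motif found in RNA-processing proteins, came next with 20.7, 40.5 and 56.3 in WT and 52.8, 63.6 and 82.4 in kn09. Its WT values fell into pairs, near 40 in samples 1 and 2 (40.9 and 40), near 21 in samples 3 and 4 (21.1 and 20.7) and near 56 in samples 5 and 6 (56.1 and 56.3). The next, AT2G27290, a locus given no role here, had 24.8, 43.9 and 47.2 in WT and 20.7, 21.8 and 29.9 in kn09, and the genotypes overlapped.

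The distance between these genes and the rest was wide. The 3 brightest members held 40.3% ± 7.39 (SD, n = 6) of the summed intensity of the 91 members in WT and 47.0% ± 3.84 in kn09. Only 7 members had a WT mean of at least 10, 24 lay between 2 and 10, and 60 lay under 2. The other 4 of the brightest 7 were CCL (AT3G26740), a gene whose transcript is under control of the circadian clock, at 12.7 ± 3.87 (SD, n = 6), AT4G17070, a peptidyl-prolyl isomerase, at 12.7 ± 5.72, CUTA (AT2G33740), a copper-binding protein of plastids, at 10.4 ± 3.42, and AT1G62250, with no role given here, at 10.2 ± 3.16. The wide spread of AT4G17070 came from WT sample 3, which had 3.20 where its neighbour WT sample 4 had 19.3. In the next steps came AT3G13150, a pentatricopeptide repeat protein of the family that processes organelle RNA, at 6.63 ± 2.55, AT4G31470, a secreted-type protein of the PR-1 family linked with defence, at 6.08 ± 2.15, and AT4G39760, an F-box protein with kelch repeats, at 4.91 ± 1.59.

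**Figure D1:**
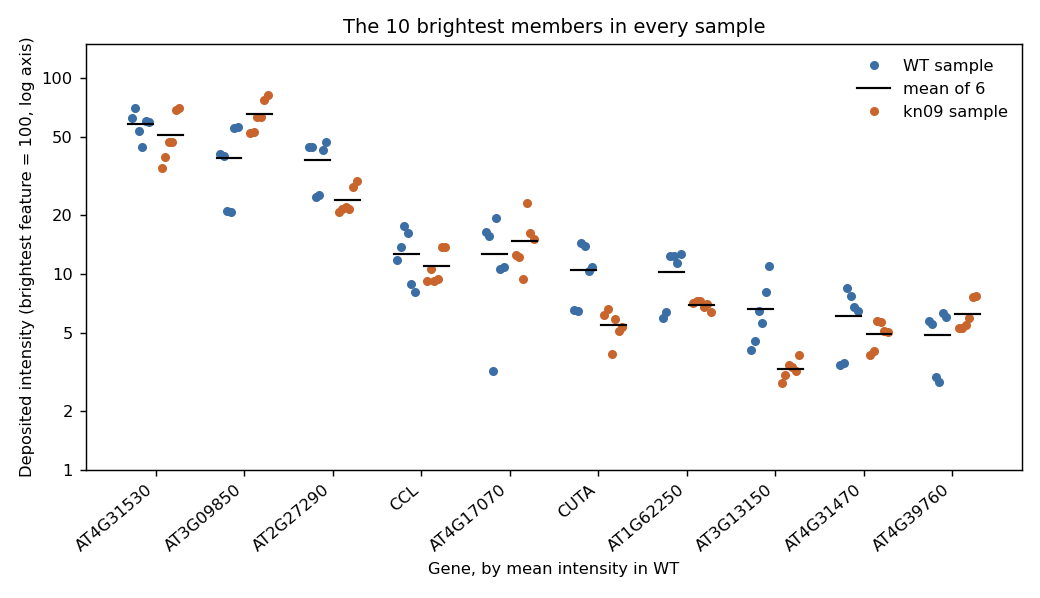
Deposited intensity (log axis, the brightest feature of each sample being 100) of the 10 brightest members, with a point for each of the 6 WT and 6 kn09 samples and a bar at each mean. AT3G09850 has its kn09 points from 52.8 to 82.4 against 20.7 to 56.3 in WT, and AT4G17070 has a WT point at 3.20 far below the others.

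Together the members held 10% ± 0.707 (SD, n = 6) of the intensity of all features in WT and 9.39% ± 1.04 in kn09, and 60.7% ± 4.57 and 62.3% ± 2.86 of the intensity of the single-gene features. They were not the brightest features of the array. Of all 3439 features, 583 had a WT mean at least as high as the dimmest member, and 492 of those were not members: apart from the 9 left out by name, the annotation gives them no gene or several. Among the 100 brightest features of a whole sample, 9 to 11 were members in WT and 8 or 9 in kn09.

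The choice of 100 cut through a continuous range of intensities. The last members inside were AT2G04700 at 0.807, which encodes a ferredoxin-thioredoxin reductase, AT2G06040 at 0.782 and the receptor-like kinase AT2G39360 at 0.774. Just outside lay AT2G30320 at 0.761, AT1G74070 at 0.752 and AGL103 at 0.744.

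A role could be stated for 54 of the 91 members, from general knowledge of the loci and after their values had been seen, and 37 were left without one. The largest group was that of 14 metabolic enzymes. Apart from AT4G31530 it held the glycosyltransferase AT4G19900 at 4.29 ± 3.01 (SD, n = 6), the lipid A type acyltransferase LpxA (AT4G29540) at 3.07 ± 1.01, cyanase (CYN, AT3G23490), which detoxifies cyanate, at 1.52 ± 0.326, the sucrose-phosphate synthase ATSPS4F (AT4G10120) at 1.01 ± 0.184 and the cellulose synthase-like gene CSLA01. AT4G19900 had intensities from 2.0 to 8.31 in WT, with a mean of 8.16 in WT samples 1 and 2 and 2.35 in samples 3 to 6, and from 4.03 to 5.55 in kn09. These 14 genes were enzymes of different pathways: sucrose synthesis, cyanate breakdown and mitochondrial fatty acid synthesis were represented by single genes.

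Genes of plastids and photosynthesis formed a group of 9, although the light-harvesting and photosystem genes left out by name are not counted in it. Its brightest members were AT1G74470, the geranylgeranyl reductase that supplies the side chain of chlorophyll and tocopherol, at 2.61 ± 0.654 (SD, n = 6), and AT3G47650, a DnaJ-type zinc finger protein of plastids, at 2.56 ± 0.938. It also held FZL, a GTPase of plastid membranes (1.86 ± 0.491), PSB27 and LPA19, which serve in the repair and assembly of photosystem II (1.52 ± 0.925 and 0.821 ± 0.290), of which PSB27 had a mean of 2.68 in WT samples 1 and 2 and 0.936 in samples 3 to 6, and the Calvin cycle gene PRK, which encodes phosphoribulokinase (1.32 ± 0.357). NADP-dependent malate dehydrogenase (AT5G58330), which exports reducing power from plastids, was at 1.40 ± 0.494. None of the 9 was among the 20 brightest single-gene features. Some of those 20 places were held by the genes left out by name, and CUTA, of plastids but placed in the transport group, held place 8. Of the 9, 8 stayed among the 100 brightest by their kn09 mean, LPA19 being the exception at 0.341 ± 0.0904.

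The 9 genes of nucleic acid binding and chromatin included 4 pentatricopeptide repeat proteins, the mTERF-family gene AT1G79220 of organelle gene expression and chr31 (AT1G05490), an SNF2-type remodeller of RNA-directed DNA methylation. All 9 stayed among the 100 brightest in kn09. The 6 genes of protein folding and turnover held AT4G17070, AT4G39760 and XERICO (AT2G04240), a RING-H2 gene that raises abscisic acid when overexpressed, at 4.18 ± 0.947 (SD, n = 6), and all 6 stayed among the 100 brightest in kn09.

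Kinases and signalling genes numbered 6, led by the protein kinase genes AT2G40980 at 4.58 ± 0.510 and AT3G57120 at 1.64 ± 0.407 (SD, n = 6). Among them AT4G32060, the calcium uptake regulator of mitochondria, was at 1.63 ± 0.526 in WT and 1.59 ± 0.298 in kn09. The transcription factor genes were the bHLH gene AT4G00870 at 2.52 ± 0.806 and the AP2/ERF gene AT1G44830 at 1.2 ± 0.224. Besides CUTA, the transport group held AT2G38550, of a family of fatty acid exporters of plastids, at 0.958 ± 0.446, and AT4G01810, a Sec23/Sec24 protein of vesicle transport, at 0.822 ± 0.314. The second defence-type gene was the TIR-NBS gene AT3G04210. The remaining 40 genes had no stated role that placed them in a group, and their median WT mean was 1.15.

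For 6 of the members the same gene was also annotated on another feature together with other genes. These other features had WT means from 0 to 0.923, and for AT4G31530 the other feature had 0.923 in WT and 9.56 in kn09. Across 94 feature pairs of the array with the same annotation, the log2 WT levels had a Pearson r of 0.196, a description across features that share the samples. Of the members, 37.4% lay next to a feature at least as bright as the dimmest member by feature number, against 18.5% of the 601 other single-gene features, and what part this has in the choice was not tested.

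Within WT, the rank of a dimmer member varied over more places than that of a brighter member. Of the 91, 53 were among the 100 brightest single-gene features in all 6 WT samples, 7 in 5, 21 in 4 and 10 in 3 or fewer. The 15 members of the first 20 places had a median rank SD of 4.02 over the 6 WT samples, and all 15 were among the 100 brightest in every WT sample. The 26 members of places 21 to 50 had a median rank SD of 8.88, with 24 in every WT sample, and the 50 members of places 51 to 100 had 25.3, with 14 in every WT sample. Rank spread and presence among the 100 depend on the distance between neighbouring features and from the limit at 100, and in intensity the 3 classes varied alike, with a median coefficient of variation in WT of 32.4%, 29.7% and 30.4%. The steadiest ranks belonged to AT4G31530 (SD of 0), AT2G27290 (0.753), AT3G09850 (1.38), CUTA (1.72) and CCL (1.83).

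The least steady ranks belonged to genes whose WT samples 1 and 2 differed from the others. AT4G35660, a locus with no role given here, had 3.95 and 4.26 in WT samples 1 and 2, between 0.0657 and 0.195 in WT samples 3 to 6, and between 0.348 and 0.458 in kn09. Its ranks in WT therefore ran from 19 to 548, and it was a member through 2 samples. AT2G06040 went the other way, with 0.272 and 0.264 in WT samples 1 and 2 and 0.995 to 1.08 in the other 4. AT4G09620, the RING-type gene AT1G49850 and the TIR-NBS gene AT3G04210 were, like AT4G35660, brighter in WT samples 1 and 2, with means of 2.30, 2.12 and 2.08 there and of 0.592, 0.50 and 0.536 in WT samples 3 to 6. With the choice made on WT samples 3 to 6 alone, 83 of the 91 members were chosen again. The 8 lost were these genes except AT2G06040, together with AT5G46560, ATSIK, AT2G46300 and AT2G39360.

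**Figure D2:**
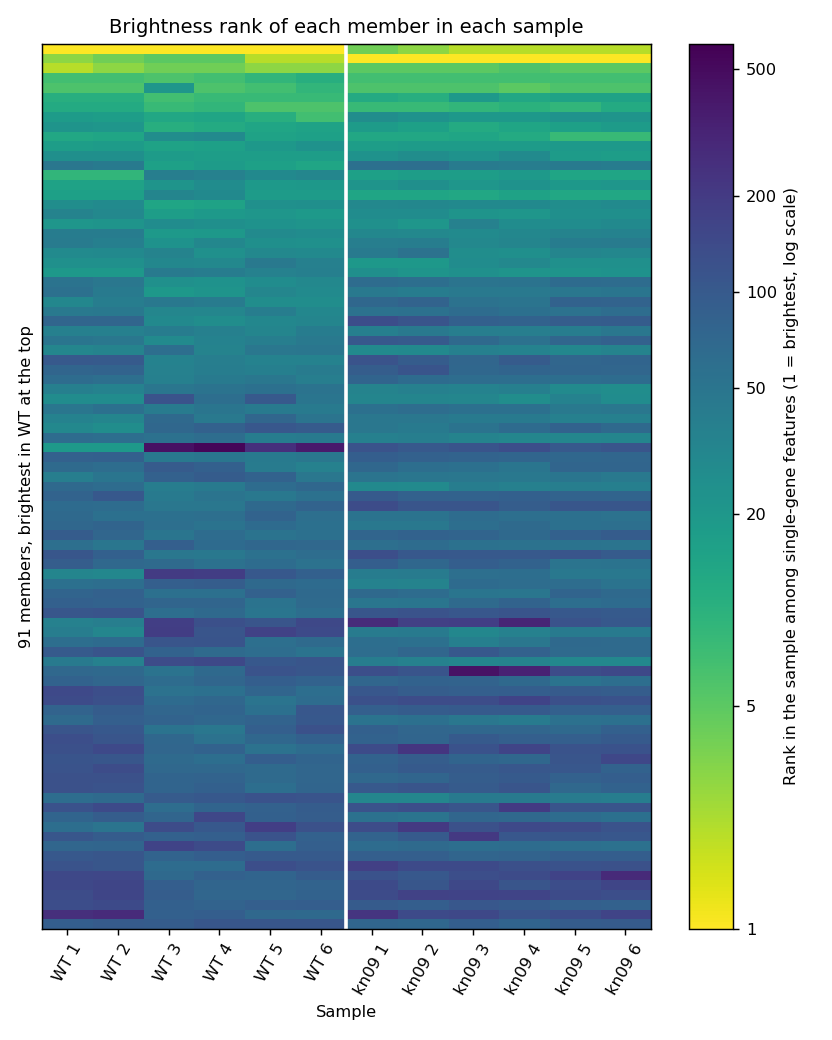
Rank of each of the 91 members (rows, brightest in WT at the top) in each of the 12 samples (columns), coloured on a log scale that starts at 1, the brightest single-gene feature. The 2 top rows run from rank 1 to 4 (AT4G31530) and from 1 to 5 (AT3G09850), and the row of AT4G35660 runs from 19 in WT samples 1 and 2 to 548 in WT sample 4.

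A WT sample that took no part in the choice gave a measure free of it. When 91 genes were chosen in the same way on the other 5 WT samples, 69, 69, 79, 76, 76 and 78 of them were among the 100 brightest of WT samples 1 to 6 in turn, a mean of 81.9% ± 4.85 (SD, n = 6). Consecutively numbered samples were alike: in WT their median rank difference over the members was 4 to 6, against 7 to 27 for other pairs, and in kn09 it was 2 to 4 against 6 to 10. The labels do not say whether such pairs are repeat measurements. With the whole pair left out of the choice, 63 to 73 of the 91 genes, a mean of 76.2%, were found in the left-out samples.

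In kn09 the members stayed near the top. Of the 91, 75 were among the 100 brightest single-gene features by their kn09 mean, 65 were among them in all 6 kn09 samples and 11 in none. Single kn09 samples had 71 to 76 of the members, chosen on all 6 WT samples, among their 100 brightest. In left-out WT samples the count was 69 to 79 with 1 sample left out of the choice. It was 63 to 73 with the whole pair left out. All 41 members of the first 50 places were still among the 100 brightest of the kn09 mean, and 34 of the 50 members of places 51 to 100 were. Members chosen on WT samples 3 to 6 alone gave 70 of 91 in place of 75. Across the 91 members the log2 mean levels in WT and kn09 had a Pearson r of 0.897 and a Spearman rho of 0.796, over genes that share the same samples. The genes that newly entered the 100 brightest in kn09 were led by AT5G33390 at 1.67 ± 0.0984 (SD, n = 6) and AT2G30100 at 1.49 ± 0.152, which had lain at places 118 and 127 in WT with 0.657 ± 0.701 and 0.629 ± 0.649.

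The 11 members in the 100 brightest of no kn09 sample were AT3G04210, AT3G50180, AT1G15140, AT1G01500, AT4G27700, AT2G46300, AT2G35450, AT4G01810, LPA19, AT4G15840 and AT2G06040. They came from the dimmer part of the choice, with WT means from 0.782 to 1.05. AT1G01500 had 0.482, 1.13 and 1.23 as its lowest, median and highest WT intensity and 0.157, 0.344 and 0.411 in kn09, with no overlap. Its mean rank went from 90.2 in WT to 147 in kn09, a shift that missed the threshold of the rank test (exact permutation test over all labelings of the 12 samples, adjusted p = 0.121).

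Over 6 samples each, ranks varied less in kn09 than in WT. The median rank SD of the members was 6.74 over the 6 kn09 samples and 13.9 over the 6 WT samples, and it was larger in WT for 71 of the 91. With WT samples 3 to 6 alone the median was 7.68, and it was larger in WT for 46. For the 100 brightest of the kn09 mean, chosen without WT, the values were 5.70 in kn09 and 12.8 in WT, while over all 692 single-gene features they were 72.5 and 68.0.

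The shift in rank between the genotypes was tested for each of the 692 single-gene features with a 2-sided exact permutation test over the samples, adjusted by Benjamini-Hochberg over all 692, and called at an adjusted p under 0.05. Of the members, 19 were called, where 13.6% of all single-gene features were: 8 had a brighter rank in kn09, against 7.37% of the features, and 11 a dimmer rank, against 6.21%. The ranks of the genotypes did not overlap in 14 members, 6 brighter and 8 dimmer in kn09, against 9.1% of the features, 5.35% brighter and 3.76% dimmer. Since the WT ranks chose the members, dimmer ranks in kn09 are favoured and nothing is read from these shares. The rank p-values here and below take the 12 samples as separate, although consecutively numbered samples were alike. With means of such pairs as the units, the smallest possible p of the exact permutation test was 0.1, so no feature could be called. In total RNA of whole roots, fewer cells of a type and less RNA per cell cannot be told apart. Without WT samples 1 and 2 the test called 48 members, 18 brighter and 30 dimmer, where it called 22.7% of the features. Without WT samples 5 and 6 it called 14 members and 9.97% of the features. Without WT samples 3 and 4, or without any pair of kn09 samples, it called 0 of the members and 0 of the features at a smallest possible exact p of 0.00476. In those 4 cases 23 to 30 members had an unadjusted p under 0.05, and the linear model of intensities fitted across all features with limma called 3 to 6. Neither count has the share of all features beside it, so nothing is read from them about the members.

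Among the members with a brighter rank in kn09 were the G-patch gene AT3G09850, CYN, PRK, the protein kinase gene ATSIK (AT3G08760) and the loci AT3G09080, AT5G46560, AT4G25290 and AT4G31930. AT3G09850 held ranks 3, 4, 5, 5, 2 and 2 in WT samples 1 to 6 and rank 1 in all 6 kn09 samples (exact permutation test, adjusted p = 0.0238). AT4G31530, rank 1 in every WT sample, held ranks 4, 3, 2, 2, 2 and 2 in kn09 samples 1 to 6, with the same adjusted p of the exact test. By group mean intensity AT4G31530 led in WT and AT3G09850 in kn09, each with the other next. In intensity neither passed limma: the log2 difference, kn09 minus WT, was 0.62 ± 0.25 (SE) for AT3G09850 (limma adjusted p = 0.119) and -0.42 ± 0.21 for AT4G31530 (adjusted p = 0.202).

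ATSIK had the clearest difference of the brighter members. Its intensity was 0.575, 0.858 and 1.25 at the lowest, median and highest in WT, and 1.59, 1.68 and 1.90 in kn09. It was the only member whose deposited intensities in kn09 all lay above all WT samples, against 1.37% of all features. Its mean rank went from 93.2 ± 25.0 (SD, n = 6) to 39.0 ± 5.62, with an adjusted p of 0.0238 in the exact permutation test. The Calvin cycle gene PRK had 1.05, 1.13 and 1.87 in WT and 1.71, 1.90 and 1.95 in kn09, and the genotypes overlapped. Its mean rank went from 57.7 ± 12.6 to 35.2 ± 5.27 (exact permutation test, adjusted p = 0.037). The cyanase gene CYN had 1.25, 1.36 and 2.04 in WT and 1.52, 2.09 and 2.39 in kn09, and the intensities overlapped while the ranks did not. Its mean rank went from 53.7 ± 9.03 to 34.5 ± 2.88 (adjusted p = 0.0238, exact). AT5G46560 showed the part of WT samples 1 and 2: it had 1.65 and 1.94 there, 0.524 to 0.692 in WT samples 3 to 6, and 1.58 to 2.43 in kn09, so its difference lay against WT samples 3 to 6.

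**Figure D3:**
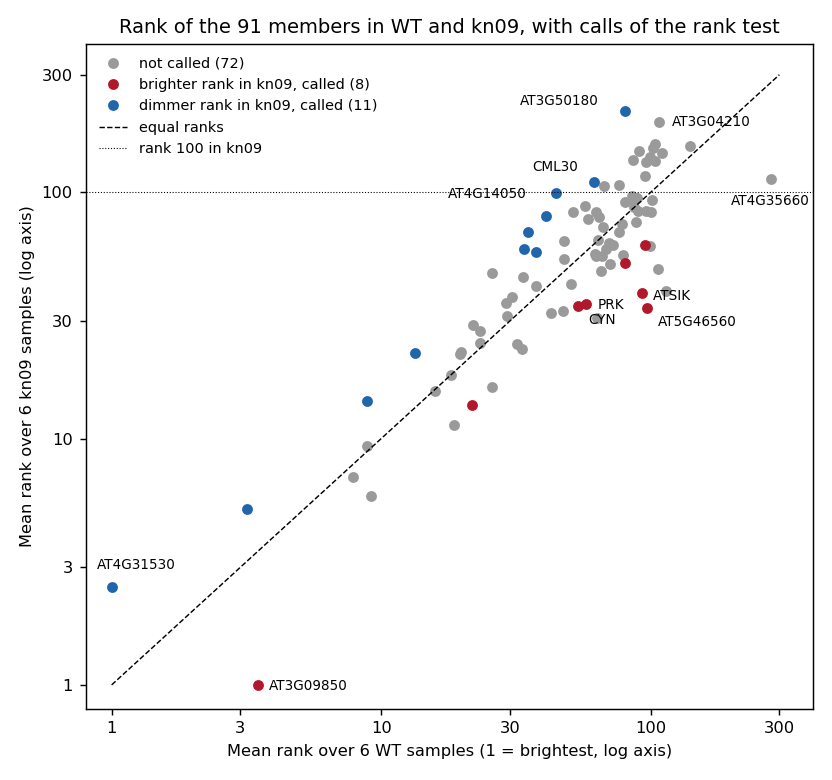
Mean rank of each of the 91 members in WT (horizontal) and kn09 (vertical), both on log axes with 1 the brightest, coloured by the call of the rank test, with a dashed line of equal ranks and a dotted line at rank 100 in kn09. AT4G31530 has mean rank 1 in WT and AT3G09850 in kn09, 8 points below the line are called brighter in kn09, and 11 above it are called dimmer.

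On the dimmer side, CML30 (AT2G15680), a calmodulin-like calcium sensor, had 0.911, 1.17 and 1.59 in WT and 0.278, 0.452 and 0.629 in kn09. All kn09 samples lay below all WT samples, as they did in 21 of the members and in 15.4% of all features. Its mean rank went from 61.5 ± 12.2 (SD, n = 6) to 110 ± 14, and only 1 kn09 sample kept it among the 100 brightest. The pentatricopeptide repeat gene AT4G14050 had 0.983, 2.43 and 2.92 in WT and 0.288, 0.577 and 0.777 in kn09, again without overlap, and its mean rank went from 44.5 ± 23.0 to 99.7 ± 19.9. AT3G50180, a locus with no role given here, had 0.589, 1.06 and 1.49 in WT and 0.0625, 0.296 and 0.348 in kn09. Its mean rank went from 80.2 ± 25.7 to 215 ± 134, the largest shift to a dimmer rank of any member, and the spread in kn09 was wide because its ranks there ran from 113 to 438. The other called members with a dimmer rank were AT4G31530, AT2G27290, CUTA, the pentatricopeptide repeat gene AT3G13150, the bHLH gene AT4G00870, AT3G52070, AT1G51350 and the ClpS-type protease adaptor AT1G68660. In mean rank, AT4G31530, AT2G27290, CUTA and AT3G13150 shifted by 1.5 to 9 places, and AT1G68660, AT4G00870, AT3G52070 and AT1G51350 by 19.3 to 39 places.

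Intensities were compared with limma on quantile-normalized log2 values of all 3439 features, with Benjamini-Hochberg adjustment over all of them. Of the members, 18 were called at an adjusted p under 0.05, where 12.8% of all features were. In kn09, 5 were higher, against 6.48% of all features, and 13 lower, against 6.31%. Of single-gene features 11.3% were called (4.48% higher and 6.79% lower), and of the 492 other features as bright as the members 24% were called (8.74% higher and 15.2% lower). Since the WT values of this contrast chose the members, nothing is read from their count. Both the rank test and limma called 15 members. The median log2 difference of the members was -0.19, and that of all features was -0.06. It was -0.10 for the single-gene features and -0.14 for the 492 other features as bright as the members. With median scaling it was 0.36 for the members and -0.10 for all features.

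The 5 higher members were AT5G46560, which differed by 1.45 ± 0.38 (SE) on the log2 scale (limma adjusted p = 0.0337), ATSIK with 1.31 ± 0.23 (adjusted p = 0.00641), PRK with 0.78 ± 0.19 (0.0271), CYN with 0.68 ± 0.18 (0.0344) and AT4G25290 with 0.61 ± 0.17 (0.0383). In each of the 5, the WT median lay under 6 of 6 kn09 samples. Of the groups, the metabolic enzymes had 1 higher and 2 lower of 14, the plastid genes 1 higher and 0 lower of 9, with 8 not called, and the kinases and signalling genes 1 higher and 1 lower of 6. PRK was the called gene of the plastid group, and the median log2 difference of its 9 genes was 0.29. By their roles CUTA (-0.92, limma adjusted p = 0.0407) and AT1G68660 (-0.74, limma adjusted p = 0.0273) also belong to plastids, and both were called lower. They had been placed by hand in the transport group and the folding and turnover group.

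The largest differences to the lower side were those of AT3G50180, at -1.72 ± 0.43 (SE) on the log2 scale (limma adjusted p = 0.0294), AT4G14050 with -1.56 ± 0.35 (adjusted p = 0.0216), AT3G52070 with -1.19 ± 0.27 (0.021), AT1G51350, an armadillo repeat gene, with -1.14 ± 0.26 (0.0221), CML30 with -1.10 ± 0.20 (0.00727) and AT4G00870 with -1.0 ± 0.24 (0.0264). The other 7 lower members had differences from -0.98 to -0.74. Among them were DRT101, a phosphoacetylglucosamine mutase of amino sugar synthesis, whose intensity was 1.2 ± 0.372 (SD, n = 6) in WT and 0.476 ± 0.114 in kn09, and CUTA, at 10.4 ± 3.42 and 5.51 ± 0.956. The nucleic acid group had 0 higher and 2 lower of 9, both of them pentatricopeptide repeat genes, and the folding and turnover group 0 higher and 1 lower of 6. The transcription factor and transport groups had 1 lower member each, of 2 and of 3, and the 40 genes of no stated group 2 higher and 5 lower. In all 13, the WT median lay above 6 of 6 kn09 samples.

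These directions depend on the scaling and on the samples. Without any scaling the median of all features shifted by -0.85 on the log2 scale and 38 members were called, 4 higher and 34 lower, where 36.6% of all features were, while with median scaling it shifted by -0.10 and 28 were called, 26 higher and 2 lower, where 18.9% of all features were. Without WT samples 1 and 2 limma called 51 members, 15 higher and 36 lower, among them all 18, where it called 24% of all features. With the replicate number as a block limma called 9 members, 6 of them among the 18, where it called 6.14% of all features. With consecutive sample pairs as a random block, whose consensus correlation was 0.476, it called 3 members, ATSIK (adjusted p = 0.0174), CML30 (0.0317) and AT4G14050 (0.0496), where it called 2.38% of all features.

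**Figure D4:**
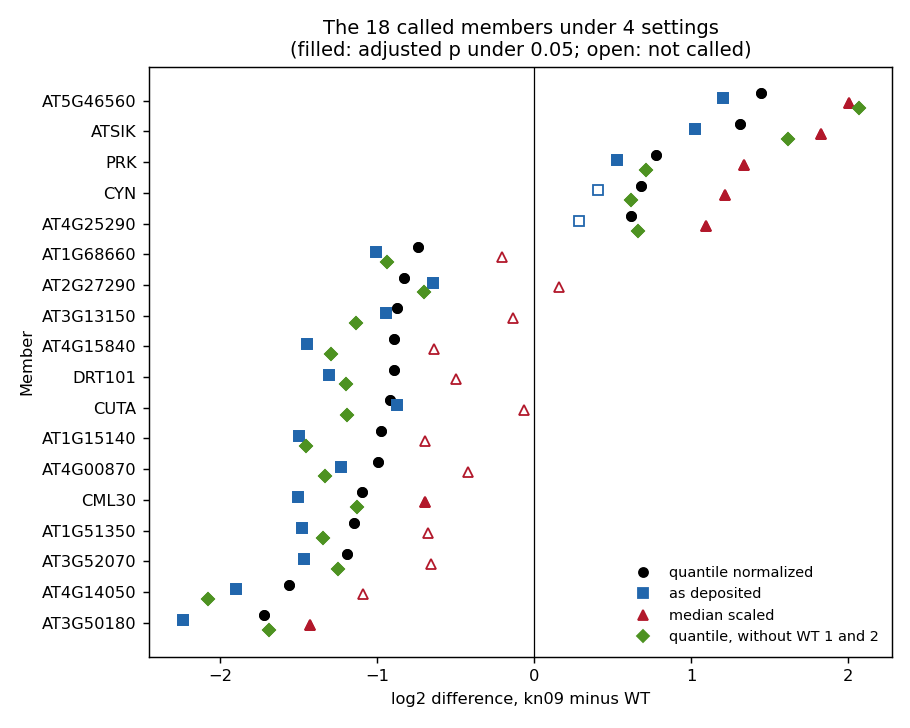
Log2 difference, kn09 minus WT, of the 18 members called by limma, after quantile normalization, as deposited, after median scaling, and after quantile normalization without WT samples 1 and 2 (filled symbols are called, open symbols are not). The 5 higher members stay above 0 in all 4 settings, and of the 13 lower members AT2G27290 turns above 0 with median scaling.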

How the data were processed

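The deposited values are linear intensities, 1 for each feature in each sample. The authors' scanning, background correction and scaling are not given in the sources used here. In each sample the highest value is 100 and no value is negative. An exact 0 means only that it was so listed. Precision is limited by the number of arrays. In all, 0 columns of per-sample values were left unused.

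Intensities were quantile normalized and put on the log2 scale in limma 3.58.1 (R 4.3.3). A floor at the 1st percentile of the positive values (0.0062) replaced zeros and anything lower. All 3439 features were tested with lmFit and eBayes, 2-sided, with genotype as the only term. Ranks were tested with an exact permutation test enumerated in numpy 2.4.6. Both procedures were tested on simulated data. Gene names came from the platform annotation, brought up to date through Entrez identifiers in the TAIR10.1 gene table, which matched all 91 members; 870 features with several genes and 1877 unnamed features were not named.

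The members, lists and tests were chosen with earlier results of these data known. Named by rule were the 10 brightest members, the 5 steadiest and 5 least steady in WT rank, the 6 largest called limma differences each way, the 5 largest mean rank shifts each way, the 2 brightest members of each function group and the genes at the threshold. Function groups were to be read from product text, which the reference table lacks, so they were assigned by hand after the values had been seen, as were the other genes named. Alternatives covered the scaling, the floor, zeros, sample pairs, the replicate number as a block and leaving samples out.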

Additional observations from a re-analysis of the deposited data

Results flagged for a closer look

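In 4 of 182 sets of 6 normalized log2 values (a member in a genotype), 1 sample lay far from the other 5 by Dixon's criterion, which chance meets in about 1 in 20 sets. FZL had a log2 value of 0.89 in kn09 sample 3 and 1.10 to 1.21 in the other kn09 samples. AT3G26580 had 0.17 in kn09 sample 3 and 0.31 to 0.38 in the others. AT4G20690 had -1.99 in kn09 sample 3 and -0.91 to -0.38 in the others. AT4G31930 had -1.33 in WT sample 4 and -0.43 to -0.10 in the other WT samples, at a deposited intensity of 0.518.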

How the results depend on the processing

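In place of the 18 members called in limma, 38 were called on deposited intensities (36.6% of all features called). Median scaling gave 28 (18.9%), and AT2G27290 turned to a log2 difference of 0.16. The count was 21 with zeros as missing (15.9%), 22 with a higher floor (15.7%) and 25 over features above 0 in all samples (24.9% of those). It was 20 when the 9 genes were left out before the 100 were kept, in the main fit, which called 12.8% of all features. Leaving out 1 sample gave 7 to 26 calls. The share of all features called was 5.58% without WT sample 3 (7 members) and 14.7% without WT sample 2 (26 members). Where a count below stands without a share of all features, nothing is read from it about the members. Leaving out a pair, an alternative chosen after seeing the data, gave 51 without WT samples 1 and 2, 5 without 3 and 4, 4 without 5 and 6, and 3, 6 and 3 without the kn09 pairs. Sample pairs as a random block gave 3 (2.38% of all features called). Means of pairs gave 0 in limma (0.465% of all features called), with 11 members at an unadjusted p under 0.05. Of the 19 rank calls, leaving out 1 sample gave 5 to 24, the lowest without kn09 sample 3 or 4, leaving out WT samples 1 and 2 gave 48, WT samples 3 and 4 gave 0, WT samples 5 and 6 gave 14, and each kn09 pair gave 0. Means of pairs gave 0 at a smallest exact permutation p of 0.1, which cannot pass. Same-numbered WT and kn09 samples had deviations correlated at 0.0683 to 0.0995, each sample best with its own number. The correlations were small, but the numbers may pair the samples, and whether they do was not tested. The main fit and the main rank test did not use the numbers. With the replicate block, limma called 9 members, 1 higher and 8 lower, 6 of them among the 18, and 6.14% of all features. The exact paired rank test called 0 at a smallest p of 0.0312, which could pass the adjustment only if most features stood at it. The share found in a left-out WT sample was 81.9%, 76.2% with the pair left out and 82.4% with medians. The 75 members among the 100 brightest in kn09 ran from 74 to 77 with 1 sample left out, and were 70 when chosen without WT samples 1 and 2. The median WT rank SD of 13.9 ran from 12.9 to 14.5 with 1 sample left out and was 76.4 among all 3439 features, a longer scale. For 18 log2 and 19 rank differences of single members over these settings, 418 comparisons kept the direction and the side of the threshold and 429 lost the call. The 429 include rank tests on means of pairs and with the replicate block, which could not or could hardly pass. The causes were not tested.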
